A study of Homo sapiens with 6 samples.

Results

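The 10 genes described here encode the cyclins that drive cells into and through mitosis (CCNA2, CCNB1 and CCNB2), the kinases that act with or downstream of them (CDK1, PLK1, AURKA, AURKB, BUB1 and NEK2) and CDC20, which is neither a cyclin nor a kinase but activates the ubiquitin ligase that ends mitosis. They were chosen by name, with earlier results of these data known. All 10 were found among the 33981 genes of the deposited table and passed the filter on low counts that left 19182 genes for testing. THP-1, an established acute myeloid leukemia line of monocytic type, received a GFP-marked lentivirus with either scrambled shRNA (3 samples, named C1, C3 and C4) or NFIC shRNA (3 samples, named N1, N2 and N3). After 4 days, cells positive for GFP were sorted and their bulk mRNA was sequenced. The study used the hairpin sh494 for the knockdown (KD). Its methods describe the control vector as GFP only, whereas the sample labels call it scrambled shRNA, which is the term kept here. Both groups were sorted alike and received no further agent, and the comparison rests on 1 cell line and 1 hairpin. Nothing in the labels says that the samples came from separate cultures, and p-values therefore measure only the spread between these samples, which may be technical.

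Entry into mitosis requires CDK1 bound to a B-type cyclin. WEE1 and PKMYT1 hold this complex inactive by phosphorylation and the CDC25 phosphatases release it. Once active, it works with PLK1 and the Aurora kinases to build the spindle, while BUB1 guards the attachment of chromosomes and NEK2 separates the centrosomes. The anaphase-promoting complex (APC/C) with CDC20 then marks the cyclins for destruction. Transcripts of these genes are low in G1 and accumulate toward G2 and mitosis, under the control of the MuvB complex with MYBL2 and FOXM1 and of the CCAAT-binding factor NF-Y, so that in a growing culture their level in bulk RNA depends on how many cells are in those phases.

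Total counts ranged from 20369543 to 24809720 per sample, at which 3 counts correspond to between 0.121 and 0.147 CPM (counts scaled to a common library size). Such a limit covers counting error only. NFIC, the knockdown target, fell from 41.9 ± 0.445 to 21.0 ± 1.52 CPM (SD, n = 3 per group; log2 fold change -0.99, SE 0.0723, edgeR adjusted p = 3.73e-09), so the cells kept a measurable amount of the transcript. The monocytic markers CD14, CD33, CD68, LYZ, CSF1R, ITGAM, SPI1, CEBPA, FCGR1A and MPO were all expressed, with a summed level between 1900 and 2080 CPM in the scrambled control and between 2009 and 2100 CPM after NFIC KD. Of these 10 markers 3 were higher, 5 lower and 2 did not pass the test, with a median log2 fold change of -0.12. Over all genes tested, 29.6% were higher and 30.3% lower. Of the markers of other cell types, 3 were expressed enough to be tested, and 1 of these, COL1A1, was lower after NFIC KD. The summed level of these markers was between 8.51 and 9.44 CPM in the scrambled control and between 3.68 and 5.51 CPM after NFIC KD. The part of other cells in the results was not tested. In a principal component analysis, PC1 (77.2% of the variance) separated the groups. PC2 (7.37%) set C3 at -18.0 and N3 at -20.5 apart from the other samples, which lay between 4.63 and 15.8. Calls of the 10 genes that changed without C3 or N3 are therefore given with and without them.

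Of the 10 genes 8 were expressed at a higher level after NFIC KD, none was lower, and CCNA2 and AURKB did not pass the test (edgeR quasi-likelihood test, adjusted p under 0.05). Among all genes tested, 29.6% were higher and 30.3% lower, so that a call in either direction was common in these cells. The increase ranged from 3.26-fold for NEK2 to 1.18-fold for CDK1, and the median log2 fold change of the 10 genes was 0.82 against -0.011 for all genes tested. As the 10 genes were chosen with earlier results known, these counts and medians describe them and are no test of the group. Of the 3 cyclins 2 rose (median 0.66) and of the 6 kinases 5 rose (median 0.90). In 8 of the 10 genes every NFIC KD sample lay above every scrambled sample in TMM-scaled CPM, a pattern that 32.2% of all genes tested showed. For any one gene, exact permutation of 3 against 3 samples gives a two-sided p of 0.1 at best. In bulk RNA, more cells of a kind and more RNA per cell cannot be told apart.

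**Figure D1:**
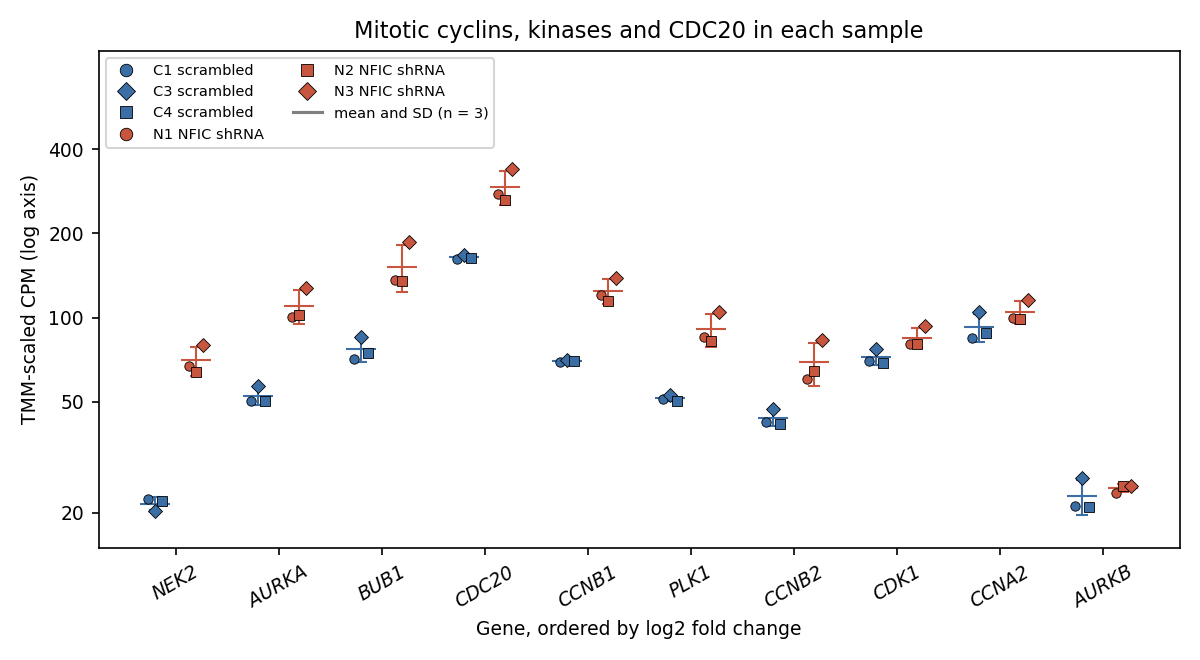
Level of the 10 genes in each sample, in TMM-scaled CPM on a log axis. Points are samples of the scrambled control (blue) and NFIC shRNA (red), and bars show the mean and SD of 3 samples. The groups are separate for 8 genes and overlap for CCNA2 and AURKB, and diamonds mark C3 and N3.

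The start regions of these genes are shown because mitotic genes share short promoter elements. RefSeq windows from 250 bases before to 50 bases after the start (GRCh38.p14) were matched by symbol for 9 of the 10 genes, all but AURKA, taking the first start listed for each gene. Of these, 4 follow: NEK2, the gene with the highest fold change, CCNB2 and PLK1, which hold both elements searched, and AURKB, which did not pass the test. Capitals mark CCAAT, the letters bound by NF-Y, and TTTGAA, on either strand. TTTGAA is a form of the cell cycle homology region (CHR) bound by the MuvB complex. Other forms of the CHR were not searched, so a window without TTTGAA may still hold one.
NEK2: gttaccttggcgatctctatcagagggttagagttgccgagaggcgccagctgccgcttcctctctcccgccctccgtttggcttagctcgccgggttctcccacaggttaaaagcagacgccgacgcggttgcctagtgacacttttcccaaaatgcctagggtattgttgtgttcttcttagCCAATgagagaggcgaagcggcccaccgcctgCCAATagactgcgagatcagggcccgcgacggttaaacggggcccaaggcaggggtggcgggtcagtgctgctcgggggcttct
CCNB2: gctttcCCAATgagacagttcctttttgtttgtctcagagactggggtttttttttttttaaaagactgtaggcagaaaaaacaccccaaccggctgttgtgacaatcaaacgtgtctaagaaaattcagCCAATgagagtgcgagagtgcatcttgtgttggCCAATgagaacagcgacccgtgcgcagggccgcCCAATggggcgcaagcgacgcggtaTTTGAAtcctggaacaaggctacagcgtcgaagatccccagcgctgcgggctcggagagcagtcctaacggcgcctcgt
PLK1: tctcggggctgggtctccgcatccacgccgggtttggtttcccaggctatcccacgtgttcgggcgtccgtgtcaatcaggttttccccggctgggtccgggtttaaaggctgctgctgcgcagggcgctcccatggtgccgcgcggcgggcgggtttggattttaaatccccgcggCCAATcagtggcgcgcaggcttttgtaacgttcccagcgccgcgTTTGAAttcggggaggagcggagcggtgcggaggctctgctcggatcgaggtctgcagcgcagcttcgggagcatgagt
AURKB: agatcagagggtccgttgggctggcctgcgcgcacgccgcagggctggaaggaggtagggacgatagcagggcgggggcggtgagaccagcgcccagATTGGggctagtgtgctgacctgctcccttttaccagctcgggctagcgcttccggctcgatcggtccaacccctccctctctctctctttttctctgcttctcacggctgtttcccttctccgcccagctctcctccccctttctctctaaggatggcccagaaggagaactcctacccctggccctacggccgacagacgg

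The windows lie at chr1:211675572-211675871 (minus strand) for NEK2, chr15:59104896-59105195 (plus strand) for CCNB2, chr16:23678639-23678938 (plus strand) for PLK1 and chr17:8210176-8210475 (minus strand) for AURKB. CCAAT was present in 9 of 9 windows, against 35.7% of the 27305 promoters of the same length, and 5 of 9 held 2 or more matches, against 11.3%. CCNB2 had 4 matches, beginning at -244, -120, -87 and -54 from the start, and NEK2 had 2, at -66 and -34. In 7 of 9 windows a match began within 100 bases before the start, against 19.0% of all promoters. The exceptions were CDK1, with its match at -150, and AURKB, with its match at -153. TTTGAA was present in 4 of 9 windows, against 15.4% of all promoters. It began at -29 in both CCNB2 and PLK1, at -161 in CDK1 and at -178 and -65 in CDC20. These 4 windows held CCAAT as well, a combination found in 6.08% of all promoters. CDK1 and AURKB have a second start in the same table. The window around the second start of CDK1 held 2 CCAAT (-78 and -46) and 3 TTTGAA (-69, -13 and 10), and that of AURKB held 1 CCAAT (-129) and no TTTGAA. Both AURKB windows leave out the 5' end of the annotated gene, at 8210600. A lack of matches in them therefore does not describe the sequence before that end. The PLK1 window likewise leaves out the 5' end of its annotated gene, at 23677656.

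NFIC itself binds palindromes, each arm of which reads TTGGC. These letters were found on either strand in 8 of 9 windows, against 46.1% of all promoters. AURKB was the gene without a match, in a window that leaves out the 5' end of the annotated gene. TTGGC read on the opposite strand is GCCAA, which overlaps CCAAT wherever a G precedes it, as at both matches in NEK2 and the match in PLK1. A full palindrome with its arms 5 bases apart was found in 0 of 9 windows and in 0.033% of all promoters. A match of letters is a description of the sequence and not a site of binding.

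Among the cyclins, CCNB1 and CCNB2 were higher after NFIC KD and CCNA2 did not pass the test. CCNB1 (ENSG00000134057, chr5:69167135-69178245, GRCh38, plus strand), the main activator of CDK1 at mitotic entry, was at 69.5, 70.6 and 70.1 CPM in C1, C3 and C4 and at 120.4, 114 and 138 CPM in N1, N2 and N3. Its scrambled samples lay closer together than those of any other of the 10 genes (SD 0.544 CPM), and the mean rose from 70.1 to 124 ± 12.5 CPM (log2 fold change 0.83, SE 0.0649, 1.78-fold, edgeR adjusted p = 1.03e-08). CCNB2 (ENSG00000157456, chr15:59105126-59125045, plus strand), the second B-type cyclin, was at 42.3, 47.1 and 41.7 CPM in the control and at 60.3, 64.1 and 82.9 CPM after NFIC KD. The groups did not overlap, N3 was the highest sample, and the increase was 1.58-fold (43.7 ± 2.96 to 69.1 ± 12.1 CPM, log2 fold change 0.66, SE 0.106, edgeR adjusted p = 0.000192). CCNA2 (ENSG00000145386, chr4:121816444-121823883, minus strand), which acts in S phase with CDK2 and in G2 with CDK1, was at 84.7, 105 and 88.4 CPM in the control and at 99.8, 98.5 and 116 CPM after NFIC KD. C3 lay above N1 and N2, so the groups overlapped, and the difference did not pass the test (92.6 ± 10.6 against 105 ± 9.47 CPM, log2 fold change 0.18, 95% interval 0.0047 to 0.35, edgeR adjusted p = 0.0711). Without C3 the log2 fold change of CCNA2 was 0.27 (edgeR adjusted p = 0.00366), and without both C3 and N3 it was 0.20 (edgeR adjusted p = 0.00126). With C3 kept, CCNA2 passed the test without N2 (edgeR adjusted p = 0.0411), with total counts only (edgeR adjusted p = 0.0432) and with no filter on low counts (edgeR adjusted p = 0.00867). With no filter its log2 fold change stayed at 0.18, while its SE fell from 0.0799 to 0.0589.

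CDK1 (ENSG00000170312, chr10:60778331-60794852, plus strand), the catalytic partner of these cyclins, was at 69.9, 77.1 and 68.9 CPM in the scrambled control and at 80.3, 80.7 and 93.0 CPM after NFIC KD. The groups were separate but the gap between C3 and N1 was narrow, and the increase of 1.18-fold was the least among the 8 genes that rose (72.0 ± 4.45 to 84.7 ± 7.18 CPM, log2 fold change 0.23, SE 0.0665, edgeR adjusted p = 0.00586). CDK1 kept its call under all 13 alternative settings, with log2 fold changes between 0.17 and 0.28.

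PLK1 and AURKA were higher after NFIC KD, and AURKB did not pass the test. PLK1 (ENSG00000166851, chr16:23677656-23690367, plus strand), which promotes mitotic entry, centrosome maturation and cytokinesis, was at 51.1, 52.7 and 50.2 CPM in the control and at 85.0, 82.1 and 105 CPM after NFIC KD. It rose 1.77-fold (51.3 ± 1.26 to 90.7 ± 12.4 CPM, log2 fold change 0.82, SE 0.079, edgeR adjusted p = 2.22e-07). AURKA (ENSG00000087586, chr20:56369389-56392337, minus strand), the centrosomal Aurora kinase that activates PLK1, was at 50.3, 57.0 and 50.4 CPM in the control and at 101, 102 and 128 CPM after NFIC KD. It rose 2.09-fold (52.6 ± 3.81 to 110.1 ± 15.3 CPM, log2 fold change 1.07, SE 0.087, edgeR adjusted p = 1.35e-07). AURKB (ENSG00000178999, chr17:8204733-8210600, minus strand), the catalytic subunit of the chromosomal passenger complex, was at 21.2, 26.7 and 21.0 CPM in the control and at 23.5, 25.0 and 25.1 CPM after NFIC KD. C3 was the highest of all 6 samples, the groups overlapped, and the difference did not pass the test (22.9 ± 3.21 against 24.5 ± 0.864 CPM, log2 fold change 0.093, 95% interval -0.10 to 0.29, edgeR adjusted p = 0.395). The interval leaves out a 2.09-fold increase such as that of AURKA. Without C3 the log2 fold change of AURKB was 0.21 (edgeR adjusted p = 0.0398), and without both C3 and N3 it was 0.20 (edgeR adjusted p = 0.0456), and AURKB passed under none of the other alternatives.

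The kinases NEK2 and BUB1, of the centrosome and the kinetochore, were higher after NFIC KD. NEK2 (ENSG00000117650, chr1:211658657-211675630, minus strand), which splits the centrosome pair at the onset of mitosis, was at 22.4, 20.2 and 22.1 CPM in the control and at 66.9, 64.1 and 79.7 CPM after NFIC KD. Unlike the other 9 genes, it was lowest in C3 among the control samples, and its increase of 3.26-fold was the highest of the 10 (21.6 ± 1.17 to 70.2 ± 8.31 CPM, log2 fold change 1.70, SE 0.083, edgeR adjusted p = 5.46e-11). Among all genes tested, 109 had a higher log2 fold change. BUB1 (ENSG00000169679, chr2:110637528-110678063, minus strand), a spindle checkpoint kinase at the kinetochore, was at 71.2, 85.5 and 74.4 CPM in the control and at 136, 135 and 186 CPM after NFIC KD. It rose 1.98-fold, with the widest spread among the KD samples relative to the mean of any of the 10 genes (77.0 ± 7.50 to 152 ± 29.1 CPM, log2 fold change 0.98, SE 0.129, edgeR adjusted p = 0.000178).

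CDC20 (ENSG00000117399, chr1:43358981-43363203, plus strand), the coactivator of the APC/C and the target of the spindle checkpoint, was at 162, 167 and 163 CPM in the control and at 277, 263 and 339 CPM after NFIC KD. It rose 1.79-fold from a narrow control range (164 ± 2.66 to 293 ± 40.3 CPM, log2 fold change 0.84, SE 0.076, edgeR adjusted p = 2.94e-07). NEK2 and AURKA were the only 2 of the 10 genes with a log2 fold change over 1, a size that 654 of the genes tested exceeded.

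**Figure D2:**
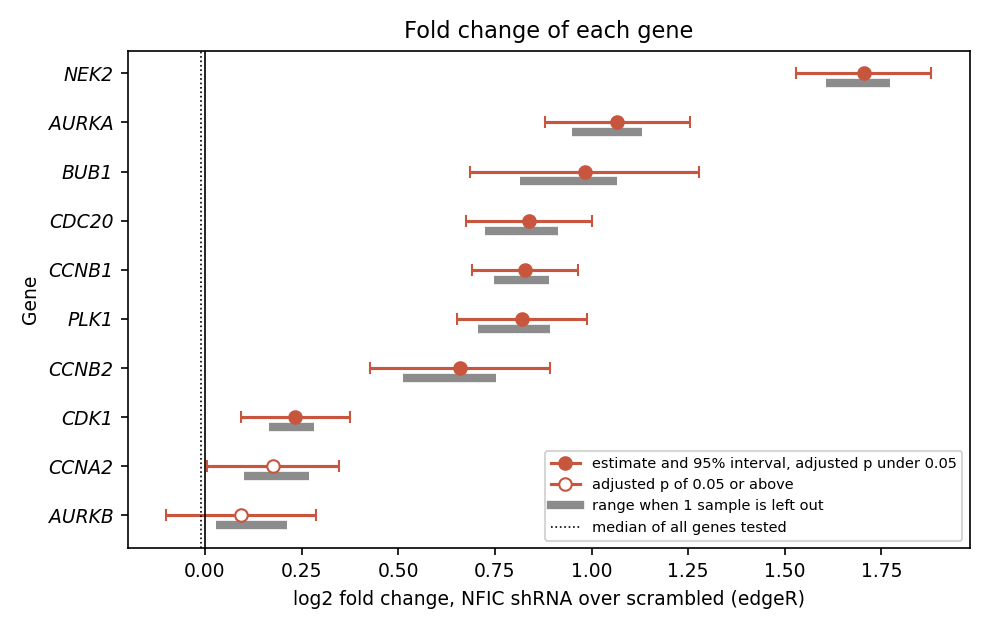
Log2 fold change of each of the 10 genes, NFIC shRNA over scrambled, with its 95% interval from edgeR. Filled points have an adjusted p under 0.05, grey bars give the range when 1 sample is left out, and the dotted line is the median of all genes tested. NEK2 lies highest at 1.70, 7 genes follow between 1.07 and 0.23, and CCNA2 (0.18) and AURKB (0.093) did not pass the test.

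**Figure D3:**
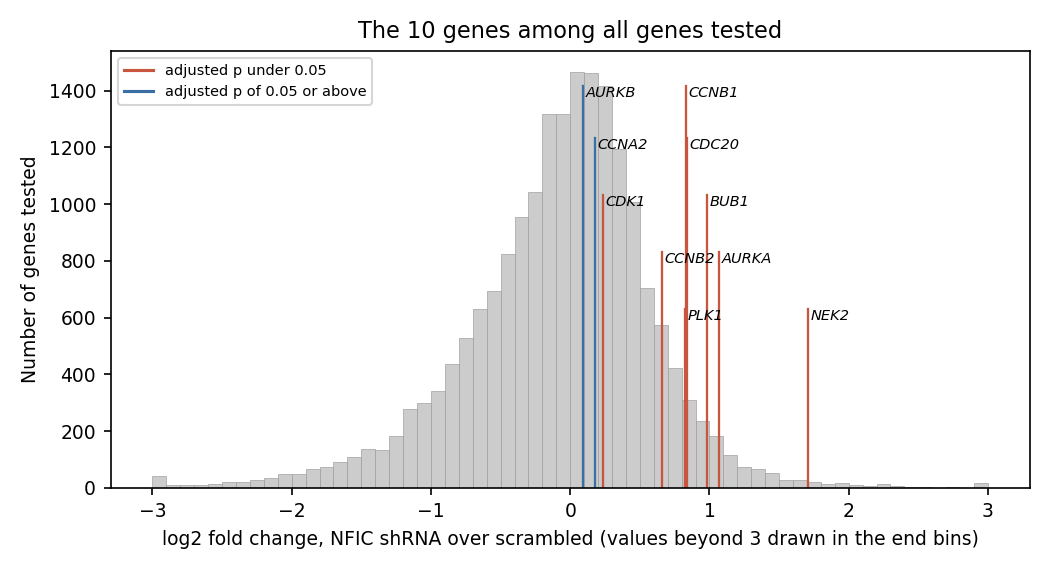
Histogram of the log2 fold change (x axis, NFIC shRNA over scrambled) of all 19182 genes tested, with the number of genes on the y axis. Vertical lines mark the 10 genes, in red with an adjusted p under 0.05 and in blue without, and their heights only separate the names. NEK2 lies in the right tail at 1.70, while CDK1, CCNA2 and AURKB lie inside the bulk of all genes.

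C3 and N3 were also high in these genes within their own groups. C3 was the highest scrambled sample in 9 of the 10 genes, which was the case for 36.6% of all genes tested, and N3 was the highest NFIC KD sample in all 10, which was the case for 38.3%. When N3 was set against C3 alone, 9 of the 10 genes were higher in N3, with log2 ratios from -0.090 for AURKB to 1.98 for NEK2 and a median of 0.98. When the mean of N1 and N2 was set against the mean of C1 and C4, 10 of 10 genes were higher, from 0.20 for CCNA2 and AURKB to 1.56 for NEK2, with a median of 0.73. The order of the genes was alike in both: NEK2, AURKA and BUB1 had the highest ratios, and CDK1, CCNA2 and AURKB the lowest. The ratios of N3 to C3 compare 1 library with 1 and have no test. With only N3 left out, the median log2 fold change of the 10 genes was 0.72, with 0.51 for CCNB2, 0.82 for BUB1 and 0.72 for CDC20.

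Levels can be compared between genes only per length, for which the deposited FPKM values were used. In the scrambled control CDC20 was the most abundant at 80.5 ± 1.38 FPKM, followed by CCNA2 at 32.7 ± 3.78 and CCNB1 at 28.5 ± 0.280 FPKM. CDK1 (18.1 ± 1.12 FPKM) and AURKA (17.7 ± 1.29 FPKM) overlapped, as did PLK1 (10.7 ± 0.255 FPKM) and AURKB (10.1 ± 1.42 FPKM). CCNB2 (15.7 ± 1.06 FPKM) and BUB1 (12.1 ± 1.19 FPKM) lay between these pairs, and NEK2 was lowest at 6.89 ± 0.372 FPKM.

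After NFIC KD the order of levels was different. CDC20 remained at the top with 146 ± 20.9 FPKM, and CCNB1 (51.1 ± 5.45 FPKM) now lay above CCNA2 (37.4 ± 3.62 FPKM), which overlapped AURKA (37.6 ± 5.47 FPKM). CCNB2 (25.1 ± 4.56 FPKM), BUB1 (24.1 ± 4.78 FPKM), NEK2 (22.7 ± 2.83 FPKM), CDK1 (21.5 ± 1.97 FPKM) and PLK1 (19.0 ± 2.73 FPKM) each overlapped the next in this order. AURKB was lowest at 10.9 ± 0.441 FPKM, below NEK2, which it had exceeded in the control.

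The sum of the 10 genes took 0.0642%, 0.0703% and 0.0644% of all counts in C1, C3 and C4 and 0.106%, 0.104% and 0.128% in N1, N2 and N3. The groups did not overlap, and the mean share rose 1.70-fold (0.0663 ± 0.00348% to 0.113 ± 0.0135%), with p = 0.1 in an exact two-sided permutation test, the smallest that 3 samples a group allow.

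Ratios between genes within a sample do not depend on how libraries were scaled. In all, 6 pairs were compared by the exact permutation test, in which p = 0.1 is the smallest possible, so none of the 6 could pass the threshold. The ratio of AURKA to AURKB counts was 2.37, 2.14 and 2.41 in the control and 4.28, 4.07 and 5.10 after NFIC KD (log2 difference 0.96, exact p = 0.1, 0.15 after adjustment over the 6 pairs). The ratio of NEK2 to PLK1 was 0.438, 0.384 and 0.441 in the control and 0.787, 0.781 and 0.760 after NFIC KD (log2 difference 0.88, exact p = 0.1, adjusted 0.15). In both pairs every KD sample lay above every control sample.

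The next pairs set CCNB1 against CDK1 and against CCNA2. The ratio of CCNB1 to CDK1 was 0.994, 0.916 and 1.02 in the control and 1.50, 1.42 and 1.49 after NFIC KD (log2 difference 0.59, exact p = 0.1, adjusted 0.15). The ratio of CCNA2 to CCNB1 was 1.22, 1.48 and 1.26 in the control and 0.830, 0.861 and 0.834 after NFIC KD (log2 difference -0.64, exact p = 0.1, adjusted 0.15). The groups were separate in both ratios. By contrast, CCNB2 to CCNB1 (0.609, 0.667 and 0.595 against 0.501, 0.560 and 0.598, log2 difference -0.18) and BUB1 to CDC20 (0.439, 0.512 and 0.457 against 0.489, 0.513 and 0.548, log2 difference 0.14) overlapped between the groups, each with an exact p = 0.2.

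**Figure D4:**
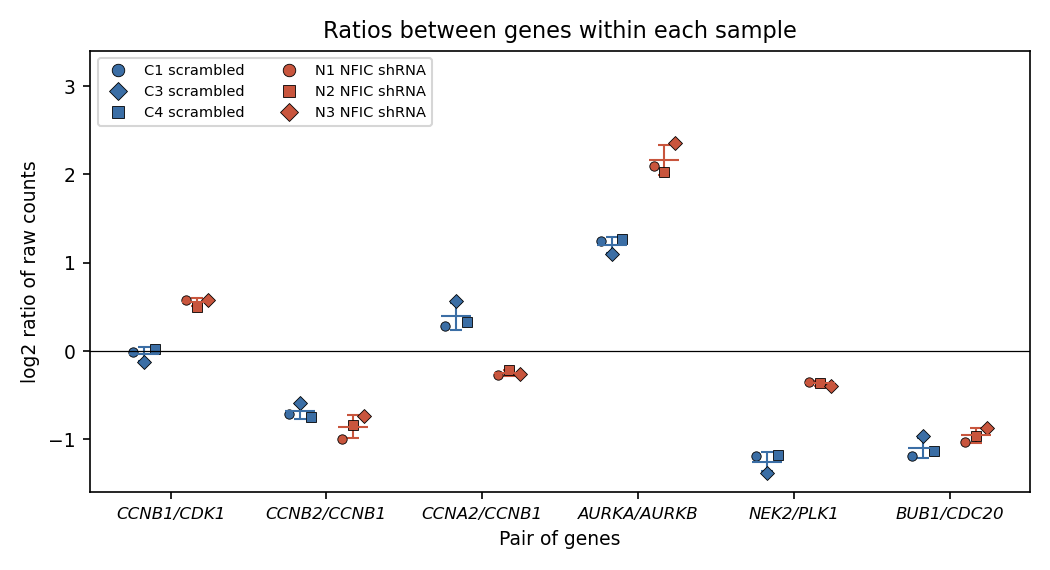
Log2 ratio of raw counts for 6 pairs of genes within each sample. Blue points are scrambled and red points NFIC shRNA samples, and bars show the mean and SD of 3 samples. CCNB1/CDK1, AURKA/AURKB and NEK2/PLK1 are higher in every NFIC shRNA sample, CCNA2/CCNB1 is lower in every one, and the other pairs overlap.

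The regulators of CDK1 rose more often than they fell. Of the 14 listed, 9 were higher, 2 lower and 3 did not pass the test, with a median log2 fold change of 0.37. The shares among all genes tested were 29.6% higher and 30.3% lower. MASTL, the kinase that restrains PP2A during mitosis, rose from 32.9 to 66.7 CPM (log2 fold change 1.02, SE 0.0868, edgeR adjusted p = 5.48e-08). Among the phosphatases that activate CDK1, CDC25B (0.95, SE 0.0859, edgeR adjusted p = 5.84e-08) and CDC25A (0.47, SE 0.125, edgeR adjusted p = 0.00690) rose, while CDC25C did not pass the test (edgeR adjusted p = 0.0719). The inhibitory kinases went in opposite directions, with WEE1 up from 34.6 to 63.9 CPM (0.88, SE 0.105, edgeR adjusted p = 1.18e-05) and PKMYT1 down from 54.1 to 39.7 CPM (-0.45, SE 0.0754, edgeR adjusted p = 6.60e-05). The small CDK1-binding subunits CKS1B (0.55) and CKS2 (0.39) and ARPP19 (0.35), a substrate of MASTL, also rose, and CDK7, which phosphorylates the activation loop of CDK1, fell by 0.34 on the log2 scale.

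Of 22 genes listed for mitotic gene transcription 8 were higher, 5 lower and 9 did not pass the test (median 0.075, and 0.018 with upper-quartile scaling). The list holds MuvB, E2F, RB and NF-Y genes, not all of them transcription factors. With upper-quartile scaling 6 were higher and 7 lower, so the more frequent direction depended on the scaling. Without N3 the higher calls were 6. For all genes tested the shares were 29.6% higher and 30.3% lower. FOXM1 rose from 80.9 to 92.6 CPM (log2 fold change 0.19, SE 0.0678, edgeR adjusted p = 0.0206), with overlapping groups, and MYBL2 did not pass the test (0.23, SE 0.124, edgeR adjusted p = 0.144). LIN37 (1.06) and LIN54 (0.80), subunits of MuvB, and E2F7 (0.98), a repressor of E2F targets, were higher. NFYC, a subunit of the factor that binds CCAAT, fell from 324 to 164 CPM (log2 fold change -0.99, SE 0.0474, edgeR adjusted p = 3.23e-11), E2F5 changed by -0.74 and E2F1, an activator of S phase genes, by -0.33.

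Partners of the Aurora kinases and PLK1 were mostly higher, with 10 of 13 up, 1 down and 2 that did not pass the test (median 0.45). Without N3 the lower calls were 2. For all genes tested the shares were 29.6% higher and 30.3% lower. The partners of AURKB in the chromosomal passenger complex passed the test. BIRC5 rose from 63.0 to 133 CPM (1.08, SE 0.0818, edgeR adjusted p = 4.63e-08), CDCA8 from 40.5 to 70.5 CPM (0.80) and INCENP less (0.45, SE 0.0735, edgeR adjusted p = 4.79e-05). TPX2, which activates AURKA on the spindle, rose from 136 to 216 CPM (0.67, SE 0.0944, edgeR adjusted p = 8.12e-05), and BORA, the cofactor through which AURKA activates PLK1, rose by 0.44. PBK, a mitotic kinase, and TTK, which starts the spindle checkpoint, rose by 1.01 and 1.02, and AJUBA, a LIM protein reported to bind AURKA, fell by 0.42 on the log2 scale.

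In the spindle checkpoint 9 of 14 genes were higher, 1 was lower and 4 did not pass the test (median 0.38). Without N3 the lower calls were 3. Of all genes tested, 29.6% were higher and 30.3% lower. TTK rose from 51.6 to 105 CPM, SGO2, which protects centromeric cohesion, by 0.72 and MAD2L1, which captures CDC20, by 0.65 (SE 0.0779, edgeR adjusted p = 2.54e-06). BUB1B, the pseudokinase relative of BUB1, was at 56.4 and 52.8 CPM and did not pass the test (log2 fold change -0.096, SE 0.0682, edgeR adjusted p = 0.237), and MAD1L1, the anchor of MAD2L1, fell by 0.29. Of the 18 genes of the APC/C and its regulators 6 were higher, 3 lower and 9 did not pass the test (median 0.063), against 29.6% higher and 30.3% lower among all genes tested. FZR1, the G1 counterpart of CDC20, rose from 31.4 to 58.7 CPM (0.90, SE 0.0667, edgeR adjusted p = 4.41e-09), UBE2C, its ubiquitin-conjugating enzyme, from 60.3 to 96.1 CPM (0.67), and the subunit ANAPC11 by 0.54. ANAPC15 fell from 10.4 to 4.11 CPM (-1.33, SE 0.12, edgeR adjusted p = 5.13e-08), ANAPC5 changed by -0.20 and ANAPC16 by -0.19. FBXO5, an inhibitor of the complex, did not pass the test (edgeR adjusted p = 0.172).

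Transcripts of APC/C substrates other than the cyclins were higher in 11 of 13 cases, with 1 lower, 1 that did not pass the test and a median of 0.64. The shares among all genes tested were 29.6% higher and 30.3% lower. PTTG1, the securin that blocks separase, rose from 25.2 to 57.2 CPM (1.18, SE 0.164, edgeR adjusted p = 0.000250), CKAP2 and TACC3, proteins of the spindle, by 0.94 and 0.78, and ESPL1, the separase, by 0.64. SKP2, a subunit of the ubiquitin ligase that destroys the CDK inhibitor p27, fell by 0.55 on the log2 scale. Phosphatase subunits that reverse mitotic phosphorylation were higher in 13 of 18 cases and lower in 1 (median 0.32), beside the same shares of all genes tested. The higher calls were 10 without C1 and 11 without C4, without N1 or without N3. The subunits with the smallest adjusted p were PPP2R5A (0.70), PPP6C (0.69) and PPP2CB (0.60), while PPP2R5D changed by -0.20.

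Of the 18 genes of the G2 checkpoint and the p53 response, 15 were tested, of which 9 were higher, 2 lower and 4 did not pass the test (median 0.28). Without C1 the higher calls in this list were 6. Of all genes tested, 29.6% were higher and 30.3% lower. CDKN1A, an inhibitor of cyclin-dependent kinases, rose from 49.3 to 92.2 CPM (log2 fold change 0.90, SE 0.0608, edgeR adjusted p = 1.46e-09), BTG2, an antiproliferative p53 target, by 1.06 and CCNG2, an atypical cyclin of resting cells, by 0.47. CHEK1, the kinase that restrains CDC25, rose by 0.34 (SE 0.103, edgeR adjusted p = 0.0119). CCNG1, another p53 target, changed by -0.60 and ATR by -0.16, and ATR lost its call under several settings, among them total counts only and the fit with a replicate block. Of the 21 genes of the G1/S transition 9 were higher, 2 lower and 10 did not pass the test (median 0.20). All genes tested gave 29.6% higher and 30.3% lower. CDC6, which loads the replicative helicase, rose by 0.95, the chromatin assembly factor CHAF1A by 0.54 and the helicase subunit MCM7 by 0.34. PCNA, the sliding clamp of DNA polymerase, fell from 96.1 to 38.8 CPM (log2 fold change -1.31, SE 0.11, edgeR adjusted p = 1.04e-06) and CCNE1 changed by -0.59. The number of higher calls in this list was 5 without C4, 5 without N3 and 13 without C3, as it was without C3 and N3 together.

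**Figure D5:**
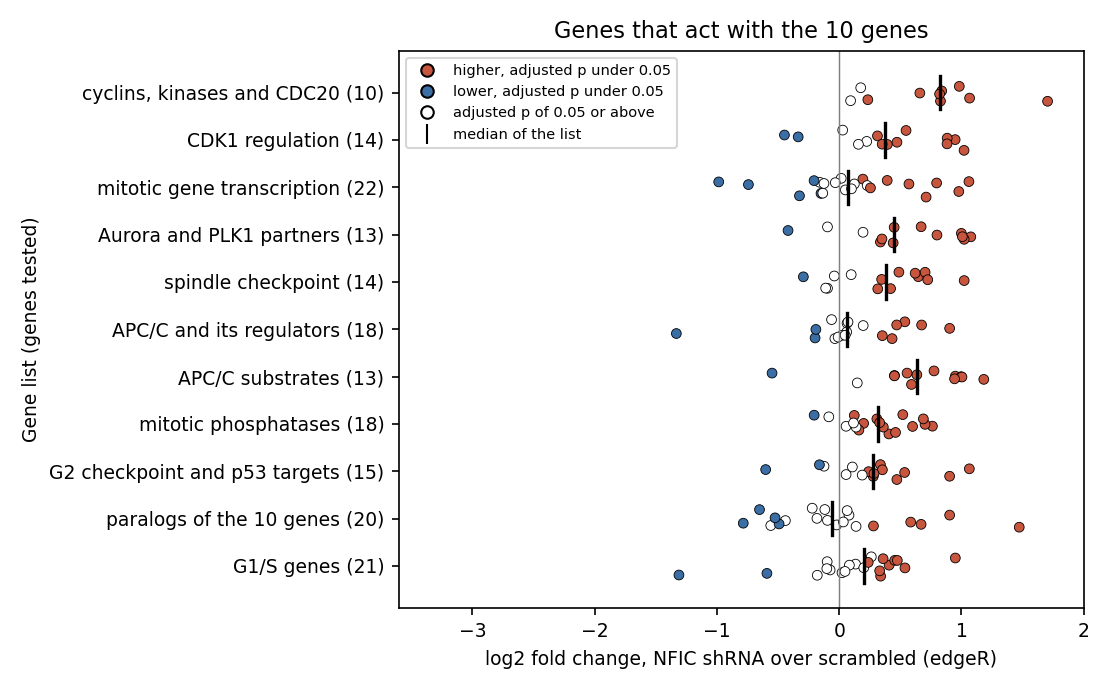
Log2 fold change (x axis, NFIC shRNA over scrambled, edgeR) of each tested gene in 11 groups, with the number tested in brackets. Red points were higher and blue points lower at an adjusted p under 0.05, open points did not pass, and the black bar is the median. The median is 0.82 for the 10 genes, 0.64 for the APC/C substrates and below 0 for the paralogs.

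Of 20 paralogs of the 10 genes tested, 5 were higher, 4 lower and 11 did not pass the test, with a median log2 fold change of -0.058. For all genes tested the shares were 29.6% higher and 30.3% lower. Lower calls among the paralogs numbered 6 with upper-quartile factors and 3 with total counts only. Some paralogs were expressed at a low level, among them CCNB3 at 1.42 CPM and AURKC at 1.72 CPM in the scrambled control. CCNA1, the A-type cyclin of the germ line that is also found in myeloid leukemia, rose from 5.89 to 16.4 CPM (1.47, SE 0.128, edgeR adjusted p = 3.70e-08). PLK4, the kinase of centriole duplication, rose by 0.58 (SE 0.0827, edgeR adjusted p = 1.26e-05) and NEK7 by 0.67, while NEK1, NEK8 and NEK3 changed by -0.65, -0.52 and -0.49. CCNB3 (-0.56, SE 0.285, edgeR adjusted p = 0.0994) and AURKC (-0.18, SE 0.254, edgeR adjusted p = 0.553) did not pass the test.

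Over the 6 samples, the level of most of the 10 genes followed that of the others. The Pearson correlation of a gene's log2 CPM with the mean of the other 9 was 0.998 for AURKA, 0.997 for BUB1, 0.996 for PLK1, 0.994 for CDC20, 0.990 for CCNB1, 0.982 for CCNB2, 0.960 for NEK2 and 0.928 for CDK1. It was lower for CCNA2 (0.756) and AURKB (0.498). Among genes outside the 10, those most alike to their mean were AC013489.1, AC087292.2, KIF14, RTF1 and RALY, with correlations from 0.9998 down to 0.9988. KIF14, a mitotic kinesin, had a log2 fold change of 0.83, whereas RTF1, a factor of transcription elongation, had 0.37 and RALY, an RNA-binding protein, had 0.12. A correlation over 0.95 with the mean of the 10 genes was found for 2443 genes. Values of this size were therefore common and do not set the 10 genes apart. All 6 points share the difference between the groups, so these correlations are descriptions over 6 samples and carry no test.

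A few of the counts can be shared with other genes. PLK1 overlaps the antisense lncRNA ENSG00000261266 over 641 bases, which held 260, 281 and 226 counts in the control and 402, 436 and 523 after NFIC KD, and ERN2 over 58 bases. CCNA2 overlaps EXOSC9 on the opposite strand over 578 bases. The strand setting of the counting is not given in the sources used here, so reads of such pairs cannot be told apart. The pseudogene CDC20P1 held 94, 96 and 90 counts in the control and 161, 193 and 256 after NFIC KD, against 3487 to 4111 and 5717 to 7822 for CDC20, and AURKAP1 held between 16 and 35 counts. CCNB2 overlaps the lncRNA ENSG00000259732 over 4012 bases and NEK2 overlaps the pseudogene FDPSP8 over 1089 bases, both on the same strand. These partners held at most 2 and 4 counts in any sample. Values of PLK1, CCNA2, CDC20, AURKA, CCNB2 and NEK2 carry the uncertainty of shared reads.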

How the data were processed

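Bulk mRNA of 6 THP-1 samples was measured. The authors trimmed the paired reads with Trim Galore, checked them with FastQC, mapped them to GRCh38 with STAR and counted them per gene with featureCounts on the Ensembl release 96 annotation. The deposited counts are raw whole numbers per gene and sample. The authors also deposited a normalized signal, scaled by 1 DESeq2 size factor per sample, which was not used here for tests, and FPKM values, made from that signal, the gene length and 1 total shared by all samples. The columns of the authors' own comparison (log2 fold change, standard error, score and p-values) were not used.

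The 19182 genes past filterByExpr were fitted with edgeR 4.0.16 in R 4.3.3, with TMM normalization, robust quasi-likelihood tests and Benjamini-Hochberg adjustment over all genes tested, with a threshold of 0.05 and no replicate block. The standard error was the log2 fold change divided by the square root of F, and 95% intervals were made from it. CPM values were scaled by TMM factors. Exact permutation tests used scipy 1.17.1. Gene positions came from GENCODE release 44, in which 90 genes tested had no entry, and promoters from RefSeq. Amino acid sequences were not analysed here.

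The members and the gene lists were chosen with earlier results of these data known. Genes named are the 10 genes, NFIC, up to 3 genes with the smallest adjusted p in each direction of each list, a set of CDK1, Aurora, APC/C and checkpoint genes named whatever their values, the 5 genes most alike and genes that share reads. Alternatives were DESeq2 size factors, upper-quartile factors and total counts, DESeq2 1.42.0, no filter, each sample left out, C3 and N3 left out together, and a replicate block. The test was tried on simulated data with few changed genes and the same spread for every gene, unlike these data. That trial does not show how the test performs here. Between 20369543 and 24809720 counts per sample set the precision.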

Additional observations from a re-analysis of the deposited data

How the results depend on the processing

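Over 13 alternatives, between 8 and 10 of the 10 genes were called higher, with medians from 0.72 to 0.89. CCNB1, CCNB2, CDK1, PLK1, AURKA, BUB1, NEK2 and CDC20 kept their direction and call in all 13. CCNA2 passed the threshold with total counts only (0.19, edgeR adjusted p = 0.0432), with no filter (0.18, edgeR adjusted p = 0.00867) and without C3 and N3 together (0.20, edgeR adjusted p = 0.00126), and ranged from 0.10 to 0.27 when 1 sample was left out, passing without C3 and without N2. AURKB passed without C3 and N3 together (0.20, edgeR adjusted p = 0.0456) and ranged from 0.028 to 0.21 when 1 sample was left out, passing without C3. Samples with the same replicate number did not deviate together (correlations 0.0563, -0.0862 and -0.0446), while C3 and N3, which share the number in their names, had 0.145, and with the replicate block 8 genes were called, CCNA2 at 0.18 (edgeR adjusted p = 0.0735) and AURKB at 0.10 (edgeR adjusted p = 0.353). Of 312 counts of calls in the gene lists recomputed, 297 lay within 1.5 times the value reported and 15 did not. The cause of these shifts was not tested.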
